A study of Mus musculus with 77 samples.

Results

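Chromosome 7 was described as a string of replication domains in cloned mouse embryos. They came from somatic cell nuclear transfer (SCNT): an oocyte, stripped of its own chromosomes, receives a somatic nucleus. Its members were all bins of 80 kb that the authors' binary replication profiles assign to chromosome 7 of genome build mm9. These numbered 1906 of 32973 bins, and 1752 of them were called in at least 1 cell. The first called bin starts at 2960001 and the last ends at 152480000.

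Each sample was 1 blastomere of a BDF1 embryo, and single-cell Repli-seq read from its DNA copy number whether each bin was already replicated. The 8-cell group held 49 blastomeres from 12 embryos and the 4-cell group 28 from 14. All embryos of both groups were SCNT embryos kept in vitro in CZB medium, the labels do not give the donor cell, and no fertilised embryo is among these samples. The comparisons used the cells in mid S phase, with a Repliscore (the authors' percent of called autosomal bins replicated) between 30 and 70. The 8-cell stage gave 28 such cells from 10 embryos, and the 4-cell stage 18 from 9. Sister cells share an embryo, so their values were averaged and the embryo was the unit of each test. By the authors' annotation 10 of the 4-cell mid-S cells, from 5 embryos, came from an earlier batch that holds no 8-cell cell. The other 8 cells, from 4 embryos, share the later batch with all 8-cell cells. The embryo mean Repliscore was 49.7 ± 8.09 in 8-cell embryos and 54.5 ± 8.99 in 4-cell embryos (SD, n = 10 and 9, two-sided exact permutation p = 0.231).

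As background, a genome is copied in an ordered programme in S phase. Gene-dense, open stretches tend to be copied early, and gene-poor stretches at the nuclear periphery tend to be copied late. Neighbouring origins fire together, so the order appears as domains far longer than a gene. In mammalian embryos this order becomes sharper over the first cleavages. Chromosome 7 of the mouse carries imprinted gene clusters, large families of olfactory and vomeronasal receptor genes and the beta-globin locus.

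Landmark genes mark the domains in the text below. Their mm9 positions are general knowledge, good to about 0.1 Mb, so each landmark was read as the bins within 0.2 Mb of it. Of the 31 landmarks, 25 single genes were found in RefSeq's GRCm38.p6 table, and all 25 had the same order along the chromosome there. Among the 5 longest early and the 5 longest late domains shared by both stages, 4 held a single-gene landmark. The promoters of these 4 genes are shown because they lie at both extremes of the replication map. Each is RefSeq's GRCm38.p6 sequence from 250 bases before to 50 after the gene's start, minus strand, with every CG in capitals.
Ryr1 (early domain): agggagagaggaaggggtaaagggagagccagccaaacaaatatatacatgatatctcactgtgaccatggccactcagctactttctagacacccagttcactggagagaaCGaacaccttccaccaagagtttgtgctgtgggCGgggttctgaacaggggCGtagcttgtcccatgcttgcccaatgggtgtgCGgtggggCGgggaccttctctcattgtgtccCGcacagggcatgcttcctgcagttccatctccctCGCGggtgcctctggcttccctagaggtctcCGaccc
Blm (early domain): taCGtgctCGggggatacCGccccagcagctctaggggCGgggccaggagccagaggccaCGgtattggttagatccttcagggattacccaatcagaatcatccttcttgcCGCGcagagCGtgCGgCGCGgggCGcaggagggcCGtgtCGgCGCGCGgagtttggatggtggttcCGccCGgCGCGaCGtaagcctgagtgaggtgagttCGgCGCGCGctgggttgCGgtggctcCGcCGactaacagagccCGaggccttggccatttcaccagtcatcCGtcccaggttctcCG
Nr2f2 (late domain): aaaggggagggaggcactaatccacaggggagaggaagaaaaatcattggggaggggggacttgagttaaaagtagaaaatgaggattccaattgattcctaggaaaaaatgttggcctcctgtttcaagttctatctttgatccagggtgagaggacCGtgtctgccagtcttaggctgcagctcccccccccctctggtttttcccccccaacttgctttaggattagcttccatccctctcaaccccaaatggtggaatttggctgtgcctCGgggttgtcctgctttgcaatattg
Tyr (late domain): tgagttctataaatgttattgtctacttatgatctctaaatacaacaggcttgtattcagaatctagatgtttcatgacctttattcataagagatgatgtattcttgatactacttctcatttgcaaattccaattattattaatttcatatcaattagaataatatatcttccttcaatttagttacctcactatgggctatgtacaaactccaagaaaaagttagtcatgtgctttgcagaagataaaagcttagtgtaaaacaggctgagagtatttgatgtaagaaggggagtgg
Ryr1, the calcium release channel of skeletal muscle, had 9 CG in this window, and 45.8% of the 32851 mouse promoters in the table hold at least as many. Blm, a helicase that resolves recombination intermediates, had 32, a number reached by 9.52% of promoters. Nr2f2, an orphan nuclear receptor of vessel and heart development, had 2, a number reached by 85.9%. Tyr, the first enzyme of melanin synthesis, had 0. The median over the table was 7. CG reads the same on both strands and overlaps no other motif searched. The counts describe these letters and were not set against replication over other genes.

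At both stages chromosome 7 was a mosaic of short early and late domains, and the same stretches stood at both ends of the order. A bin was called early where the mean over embryos was at least 80% replicated, late where it was at most 20%, and intermediate otherwise. Of 1701 bins with enough embryos at both stages, 588 were early, 533 intermediate and 580 late at the 8-cell stage. At the 4-cell stage 708 were early, 649 intermediate and 344 late. Early at both stages were 534 bins, and late at both stages were 313. Across bins the profiles of the 8-cell and the 4-cell stage had Pearson's r = 0.895 and Spearman's rho = 0.883, given as a description over 1701 neighbouring bins that are not independent. No bin was early at the 8-cell stage and late at the 4-cell stage, and 3 bins were late at the 8-cell stage and early at the 4-cell stage. The 3 were single bins at chr7:27280001-27360000, chr7:124960001-125040000 and chr7:136240001-136320000. They averaged 18.3%, 19.05% and 18.3% replicated at the 8-cell stage and 86.1%, 94.4% and 80.6% at the 4-cell stage. The mean Repliscores differ in the same direction as these classes, and the part of that difference in the class counts was not tested.

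**Figure D1:**
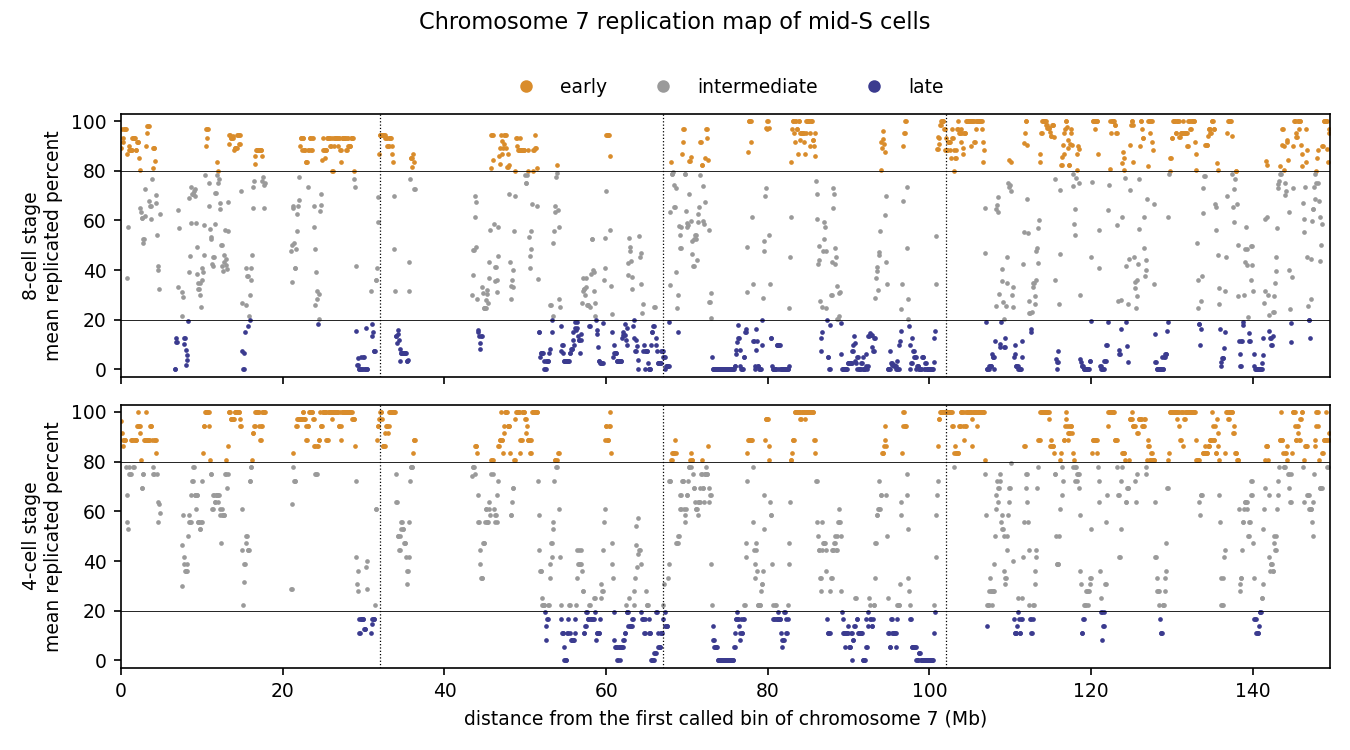
Mean replicated percent (y axis, mean over embryos of mid-S cells) of each 80-kb bin of chromosome 7 against its distance in Mb from the first called bin, with the 8-cell stage above and the 4-cell stage below. Colours mark early (at least 80%), intermediate and late (at most 20%) bins, and dotted lines the borders of the 4 parts described below. The 8-cell map has more late bins in its distal part (150, against 43 at the 4-cell stage).

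The 5 longest early domains of both stages lay in 3 of the 4 parts of the chromosome. The longest, chr7:27760001-31760000, spans 4.00 Mb and holds Ryr1. Its embryos ranged from 33.3 to 100% replicated (median 97.7%) at the 8-cell stage and from 94.0 to 100% (median 100%) at the 4-cell stage. The 33.3% belonged to 8-cell embryo 1, described below, and the other 9 8-cell embryos lay at 88.0% or above. The domain at chr7:106000001-109760000 averaged 95.5 ± 5.99% in 8-cell embryos and 96.2 ± 6.41% in 4-cell embryos (SD, n = 10 and 9). The domain at chr7:132640001-136000000 averaged 95.3 ± 6.06% in 8-cell embryos and 98.1 ± 2.56% in 4-cell embryos. The domain at chr7:85840001-88880000, which holds Blm, averaged 95.4 ± 5.96% in 8-cell embryos and 96.9 ± 6.90% in 4-cell embryos. The fifth, chr7:104000001-105920000, averaged 93.7 ± 11.2% in 8-cell embryos and 98.7 ± 1.93% in 4-cell embryos. These values chose the domains and are given without a test.

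Cells outside mid S did not enter the choice of domains. In the 6 cells of the 8-cell stage under a Repliscore of 30 the 5 early domains had medians of 74, 61.7, 75, 64.5 and 20.8% replicated, in the order above. The fifth domain ranged from 0 to 58.3% in them, although all 5 averaged over 90% in mid S at both stages. The only 4-cell cell under 30 had none of the 5 domains replicated, as it had almost none of the chromosome. The 5 longest late domains had a median of 0% in the 8-cell cells and were at 0% in the 4-cell cell.

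The longest late domain of both stages, chr7:76080001-79920000, spans 3.84 Mb and holds Nr2f2. It ranged from 0 to 8.33% (median 0%) in 8-cell embryos and from 0 to 17.7% (median 3.13%) in 4-cell embryos. None of its 48 bins was replicated in 22 of 28 cells of the 8-cell stage and in 9 of 18 cells of the 4-cell stage. Around Nr2f2 itself every embryo of both stages was at 0%. The late domain at chr7:100560001-103520000 averaged 2.02 ± 3.88% in 8-cell embryos and 2.48 ± 4.83% in 4-cell embryos (SD, n = 10 and 9). The domain at chr7:92080001-93760000 averaged 2.82 ± 4.201% in 8-cell embryos and 10.3 ± 16.7% in 4-cell embryos. The domain at chr7:63840001-65360000 averaged 6.62 ± 13.2% in 8-cell embryos and 6.43 ± 9.68% in 4-cell embryos. The domain at chr7:93920001-95440000, which holds Tyr, averaged 2.24 ± 1.94% in 8-cell embryos and 9.06 ± 11.6% in 4-cell embryos. Cells with a Repliscore over 70 numbered 15 from 8 embryos at the 8-cell stage, against 9 from 5 embryos at the 4-cell stage. Their median Repliscores were 86.4 in 8-cell cells and 90.3 in 4-cell cells. Over the whole of chromosome 7 their medians were 78.5% replicated in 8-cell cells and 99.2% in 4-cell cells. Most of these 4-cell cells thus had nearly all of the chromosome replicated, and their medians of 100% below are not particular to late domains. The 8-cell cells include cell 1 of embryo 10, with 7.36% of chromosome 7 replicated at a Repliscore of 94.3. The Nr2f2 domain had a median of 16.7% in these 8-cell cells and 100% in these 4-cell cells, and was fully replicated in 2 of the 15 8-cell and 6 of the 9 4-cell cells. The domain from 100560001 had a median of 5.41% in the 8-cell cells and 100% in the 4-cell cells. For the domains from 92080001, 63840001 and 93920001 the medians were 42.9, 31.6 and 63.2% in the 8-cell cells, and 100% for each in the 4-cell cells. The ranges overlapped for each domain. Sister cells were counted separately here, and the stages were not tested against each other.

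Late domains, runs of at least 5 late bins, were longer in the 8-cell map. The maps use replicated percents that are not relative to the autosomes, and the 4-cell embryos had the higher mean Repliscore. The part of the Repliscore in the runs was not tested. The share of late bins at the 4-cell stage was lower in the later batch alone, as given in the last section. There were 31 late domains with a median span of 1.2 Mb at the 8-cell stage and 26 with a median of 0.64 Mb at the 4-cell stage. Early domains numbered 38 with a median of 0.72 Mb at the 8-cell stage and 37 with a median of 1.04 Mb at the 4-cell stage. Late domains covered 43.8 Mb at the 8-cell stage and 26.1 Mb at the 4-cell stage. Early domains covered 43.7 Mb in the 8-cell map and 53.3 Mb in the 4-cell map. Both maps shared 33 early and 22 late domains of at least 5 bins. The longest early run was chr7:103840001-109760000 at the 8-cell stage (5.92 Mb) and chr7:27200001-31920000 at the 4-cell stage (4.72 Mb). The longest late run was chr7:91920001-96240000 in the 8-cell map (4.32 Mb) and the Nr2f2 domain in the 4-cell map (3.84 Mb).

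The profiles also changed state more often at the 8-cell stage. Along chromosome 7 the embryos had 53.4 to 93.8 changes per 1000 called bins (median 71.5) at the 8-cell stage and 33.8 to 64.8 (median 50.7) at the 4-cell stage, so the ranges overlapped. The means were 71.7 ± 11 in 8-cell embryos and 51.8 ± 11.4 in 4-cell embryos (SD, n = 10 and 9), a difference of 19.9 (exact permutation p = 0.00102, adjusted p = 0.00512 over 20 chromosomes). The same test passed on 85% of the 20 chromosomes, so chromosome 7 did not stand apart in this. The 4-cell embryos differed by batch here. They had 33.8 to 48.5 changes in the later batch, which holds all 8-cell cells, and 50.7 to 64.8 in the earlier batch. The part of the Repliscore in these values was not tested.

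8-cell embryo 1 stood apart from the other embryos over the first 70 Mb. It gave 8 cells, 7 of them in mid S. Between 3 and 35 Mb its cells 1, 3, 4 and 8 were 35.1, 1.23, 36.6 and 0% replicated, and its cells 2, 5, 6 and 7 were 97.4, 91.1, 68.2 and 62.7% replicated. Between 35 and 70 Mb cells 1, 3, 4 and 8 were 2.73, 1.27, 0.952 and 0% replicated, and cells 2, 5, 6 and 7 were 82.4, 79.7, 53.6 and 53.3% replicated. Cell 8, with a Repliscore of 46.8, had no replicated bin up to 70720000 and 52.1% replicated bins after it. Cell 6, with the lower Repliscore of 32.3, had 70.3% replicated bins up to 57680000 and 36.3% after it. Sister cells of 1 embryo thus lay on opposite sides over the same stretch. In 6 of the 8 cells fewer bins were called between 3 and 35 Mb, and between 35 and 70 Mb, than in any of the other 69 cells. The 8 cells had 116 to 320 called bins in the first stretch and 157 to 349 in the second, against 296 to 364 and 338 to 349 in the other cells. A cause was not tested.

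Without 8-cell embryo 1, which leaves 9 8-cell embryos, the map changed little. Early bins then numbered 588 and late bins 587 at the 8-cell stage. From 3 to 35 Mb late bins numbered 43 and intermediate bins 128 of 324, and from 35 to 70 Mb early bins numbered 82 of 349 and late bins 159. Late domains then covered 44.3 Mb of the 8-cell map and early domains 43.5 Mb, and the longest early run shrank to 4.08 Mb. The longest shared early domain averaged 96.9 ± 4.03% in the remaining 8-cell embryos and the late domain from 63840001 averaged 3.85 ± 10.4% (SD, n = 9). The 8-cell means of the 13 landmarks in the first 2 parts moved by -3.79 to 6.59 points, and 0 of them moved to another class. Ryr1 was then at 99.3 ± 2.22%, Cebpa at 98.1 ± 5.56%, Apoe at 91.1 ± 13.6%, Ccne1 at 88.9 ± 16.1% and Nlrp5 at 52.1 ± 23.8%.

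Long stretches of 1 state were found in other cells too. A run of 20 Mb or more in 1 state on chromosome 7 was present in 5 of 28 mid-S cells at the 8-cell stage, all from embryo 1, and in 3 of 18 at the 4-cell stage. The 4-cell runs, all replicated, were chr7:124800001-148160000 in embryo 1, chr7:34560001-54640000 in embryo 3 and chr7:11200001-54640000 in embryo 6. Outside mid S, cell 1 of 8-cell embryo 10 had a Repliscore of 94.3 but only 7.36% of its chromosome 7 bins replicated. The only 4-cell cell under a Repliscore of 30, from embryo 8 with a Repliscore of 12.6, had 0.12% of chromosome 7 replicated.

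**Figure D2:**
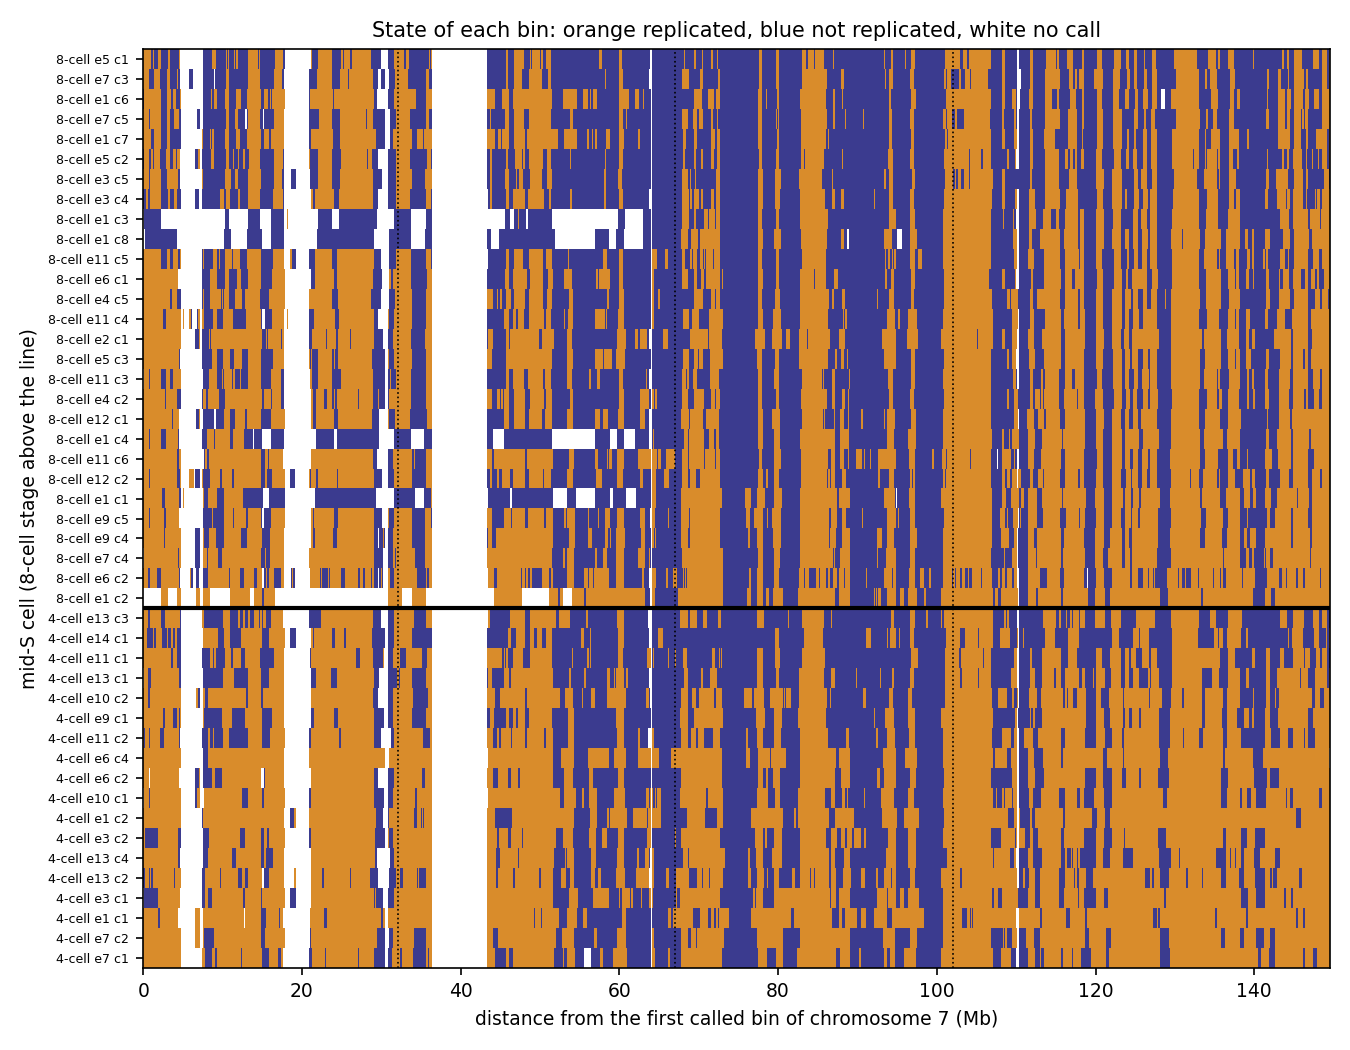
State of each 80-kb bin (x axis, distance in Mb from the first called bin) in each mid-S cell (rows, 28 cells of the 8-cell stage above the line and 18 of the 4-cell stage below, each ordered by Repliscore; e is the embryo and c the cell), with dotted lines at the borders of the 4 parts. Cells 1, 3, 4 and 8 of 8-cell embryo 1 are nearly all unreplicated between 35 and 70 Mb, where its cell 2 is 82.4% replicated.

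The question set for the chromosome was which part of it carries its stage difference. The parts were cut by position into 3 to 35 Mb, 35 to 70 Mb, the third part (chr7:70000001-105040000) and the distal part (chr7:105040001-152480000). For each cell the replicated percent was taken relative to that of its own autosomes, by subtraction. The whole chromosome lay at 0.00758 ± 4.08 points in 8-cell embryos and at 6.29 ± 6.65 points in 4-cell embryos (SD, n = 10 and 9), a difference of -6.28 points. This difference is the base of what follows and no new result: chromosome 7 was taken up because its unadjusted exact permutation p of 0.0231 was the only one under 0.05 among 20 chromosomes (5% of them), and adjusted over the 20 it was 0.463.

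Each part had a lower mean at the 8-cell stage, though none passed the adjusted threshold. The parts are pieces of a chromosome taken up for its lower 8-cell mean. Their lower means and low unadjusted p-values thus follow in part from that choice and are no independent support. The distal part, which has the most bins, contributed most to the chromosome's difference, though its own difference in points was not the largest. In the distal part the embryos ranged from 3.37 to 18.3 points (median 8.43) at the 8-cell stage and from 3.36 to 29.2 points (median 15.6) at the 4-cell stage. The ranges overlapped, 4 of the 9 4-cell embryos lay above every 8-cell embryo, and 9 of the 10 8-cell embryos lay below the 4-cell median. The means were 9.58 ± 4.21 points in 8-cell embryos and 16.9 ± 7.26 points in 4-cell embryos (SD), a difference of -7.32 points (exact permutation p = 0.0141, adjusted p = 0.240 over the 74 parts of all chromosomes cut at the same positions). After adjustment 0% of the 74 parts passed, and 10.8% had an unadjusted p under 0.05, among them 2 of the 4 parts of chromosome 7. None of the 4 differences passed, and 8 of the 74 parts passed before adjustment.

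The part from 3 to 35 Mb was the earliest of the chromosome. Its embryos ranged from -5.13 to 32.2 points (median 15.7) at the 8-cell stage and from 11.5 to 33.7 points (median 23.5) at the 4-cell stage. The difference was -8.57 points (exact permutation p = 0.0538, adjusted p = 0.388), and -6.32 points without 8-cell embryo 1 (adjusted p = 0.435). From 35 to 70 Mb the embryos ranged from -20.5 to -5.25 points (median -12.7) at the 8-cell stage and from -19.5 to 5.81 points (median -1.71) at the 4-cell stage. Every 8-cell embryo lay below the 4-cell median there, and 6 of 9 4-cell embryos lay above every 8-cell embryo. That difference was -7.51 points (exact permutation p = 0.0414, adjusted p = 0.388), and -6.61 points without 8-cell embryo 1 (adjusted p = 0.384). In the third part, the latest at both stages, the embryos ranged from -21.6 to -4.56 points (median -14.8) at the 8-cell stage and from -21.0 to -0.712 points (median -12.7) at the 4-cell stage. At -3.13 points this difference was the smallest of the 4 (exact permutation p = 0.273, adjusted p = 0.612).

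Split by the called bins of each part, the 4 contributions add up to the -6.28 points. The distal part contributed -2.48 points (39.5% of the difference), 3 to 35 Mb contributed -1.59 points (25.3%), 35 to 70 Mb -1.37 points (21.8%) and the third part -0.838 points (13.4%). The distal part is also the longest, with 593 of the 1752 bins called in at least 1 cell. In points relative to the autosomes it differed by -7.32, less than 3 to 35 Mb (-8.57) and 35 to 70 Mb (-7.51). Without 8-cell embryo 1 the difference was -6.21 points, of which the distal part contributed 44.4%, 3 to 35 Mb 19.2%, 35 to 70 Mb 21.9% and the third part 14.6%. The contributions divide a difference for which the chromosome was taken up, so they are a description with no test. Whether the parts differ from each other in their stage difference was not tested.

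Within the later batch, which leaves 4 4-cell embryos, the distal part differed by -11.8 points (exact permutation p = 0.0030, adjusted p = 0.222). These 4 embryos had mean Repliscores of 56.5 to 68.5, against a mean of 49.7 over the 8-cell embryos. The part of that gap in the difference was not tested. This p-value too follows in part from the choice of the chromosome and adds no support. Without mid-S cells that hold a run of 20 Mb or more on chromosome 7 the distal part differed by -6.19 points (adjusted p = 0.401). In that setting 35 to 70 Mb differed by -0.607 points and 3 to 35 Mb by -3.57 points (adjusted p = 0.980 and 0.693). This setting leaves out 5 of 28 8-cell cells and 3 of 18 4-cell cells by a property of the chromosome measured, so it is no independent check of a part.

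**Figure D3:**
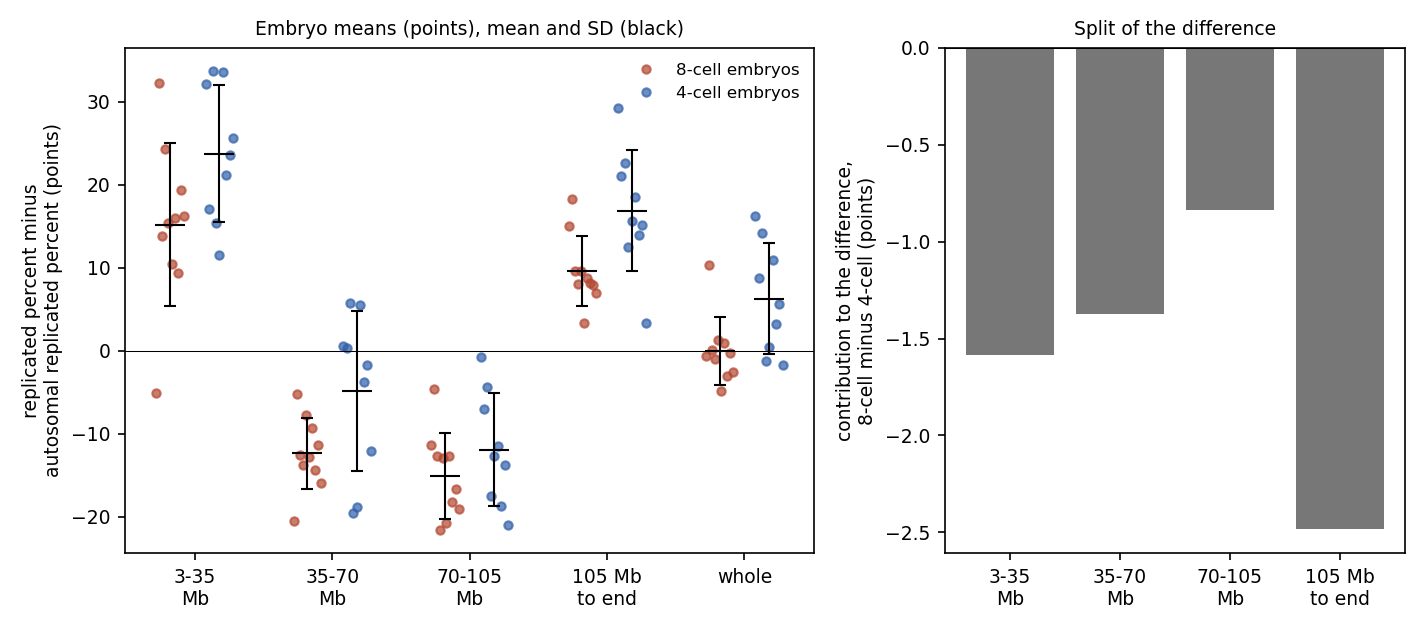
Left, replicated percent minus the autosomal replicated percent (y axis, points) of the 4 parts and of the whole of chromosome 7, 1 dot per embryo (10 8-cell embryos left, 9 4-cell embryos right in each pair), with the mean and SD in black. Right, the contribution of each part to the chromosome's difference of -6.28 points, with the largest bar, -2.48 points, from the distal part.

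In the bin classes, the number of late bins differed most in the distal part. In the distal part 150 of 590 bins were late at the 8-cell stage, against 43 at the 4-cell stage. There, 108 bins were late at the 8-cell stage and intermediate at the 4-cell stage, and 3 were intermediate at the 8-cell stage and late at the 4-cell stage. In the third part 234 of 438 bins were late in the 8-cell map and 177 in the 4-cell map, and the early bins numbered 93 in the 8-cell map and 96 in the 4-cell map. From 3 to 35 Mb early bins numbered 148 of 324 at the 8-cell stage, against 189 at the 4-cell stage. From 35 to 70 Mb late bins numbered 156 of 349 in 8-cell embryos and 107 in 4-cell embryos.

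Bins that were late at the 8-cell stage and intermediate at the 4-cell stage numbered 264 on the chromosome and lay in short runs. The longest, chr7:36880001-38480000, averaged 8.08% in 8-cell embryos and 49.9% in 4-cell embryos over 20 bins. The next was chr7:81120001-82320000, with 6.17% in 8-cell embryos and 33.3% in 4-cell embryos. The run at chr7:110160001-111120000 touches the beta-globin gene Hbb-b1 and the olfactory receptor genes (Olfr) beside it, and averaged 3.21% in 8-cell embryos and 29.6% in 4-cell embryos. The run at chr7:54560001-55360000 lies in the Mrgpr cluster, receptors of itch- and pain-sensing neurons, and averaged 7.17% in 8-cell embryos and 32.5% in 4-cell embryos. Runs of the opposite kind were few, and the longest, chr7:60160001-60800000, averaged 30.3% in 8-cell embryos and 15.3% in 4-cell embryos.

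At a resolution of 1 Mb, 99 of the 137 windows of chromosome 7 had a fitted stage difference below 0, beside 51.2% of all windows of the genome. The median fitted difference was -6.05 points on chromosome 7 and -0.38 points over all 2537 windows. The fit used limma on embryo means, with stage and the embryo's autosomal replicated percent as terms. At an adjusted p under 0.05, 0 of the 137 windows passed, beside 0.709% of all windows. Before adjustment 25 of the 137 windows had p under 0.05, 22 of them lower at the 8-cell stage, where 15.7% of all windows had such a p and 8.59% had it and were lower. The windows below 0 were 22 of 26 from 3 to 35 Mb, 22 of 28 from 35 to 70 Mb, 22 of 35 in the third part and 33 of 48 in the distal part. Neighbouring windows share domains, so these counts have no test. Chromosome 7 was taken up for its lower 8-cell mean, so an excess of windows below 0 follows from that choice and adds no support.

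The window closest to the threshold was chr7:27000001-28000000, at the left edge of the longest early domain. It ranged from 23.1 to 76.9% (median 52.9%) in 8-cell embryos and from 46.2 to 100% (median 100%) in 4-cell embryos. The fit put it at -32.7 points (SE 7.65), with an adjusted p of 0.0510 from limma. The group ranges overlapped. With 1 embryo left out at a time the fitted difference lay between -38.1 and -29.2 points and the adjusted p between 0.0105 and 0.139, under 0.05 in 2 of 19 cases. The largest fitted difference was -40.7 points at chr7:37000001-38000000 (adjusted p = 0.201), where the 8-cell median was 0% and the 4-cell median 46.2%. The other 3 of the 5 largest lay in the distal part: chr7:128000001-129000000 with -27.6 points, chr7:136000001-137000000 with -26.4 points and chr7:141000001-142000000 with -23.9 points (adjusted p = 0.135, 0.210 and 0.227).

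The largest fitted differences above 0 were smaller and none was near the threshold. They were 20.1 points at chr7:72000001-73000000, 17.97 points at chr7:61000001-62000000, 17.3 points at chr7:74000001-75000000, 16.7 points at chr7:60000001-61000000 and 15.5 points at chr7:65000001-66000000, with adjusted p from 0.227 to 0.534. The window from 74000001 holds Mef2a, a transcription factor of muscle and heart. It averaged 69.9 ± 30.2% in 8-cell embryos and 66.9 ± 39.998% in 4-cell embryos (SD, n = 10 and 9), so its means lay closer together than the fitted difference.

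**Figure D4:**
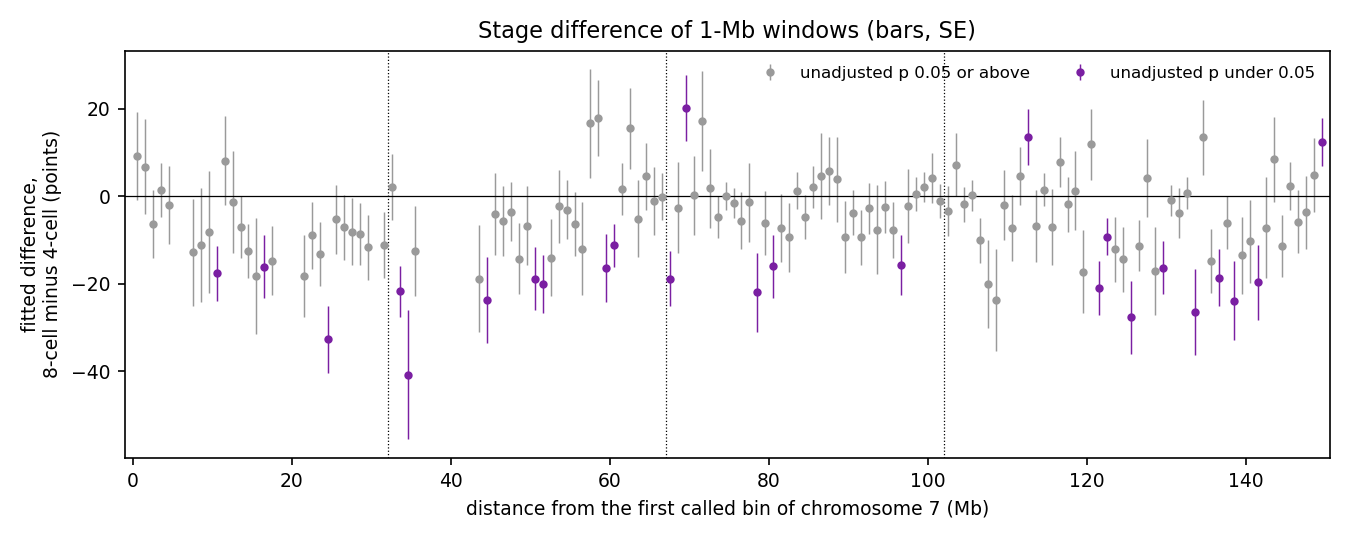
Fitted stage difference (y axis, 8-cell minus 4-cell, points, with its SE as a bar) of each of the 137 1-Mb windows of chromosome 7 against distance in Mb from the first called bin, with dotted lines at the borders of the 4 parts. Windows with an unadjusted limma p under 0.05 are coloured, and 22 of these 25 lie below 0.

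Among the 31 landmarks, 14 were lower by 10 points or more at the 8-cell stage, 17 lay within 10 points and 0 were higher by as much. This share is near that of all bins compared, of which 47.1% were lower by 10 points or more, so it says nothing about these genes. Their median difference was -8.00 points, and that of all bins -8.61 points.

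Imprinted genes, expressed from 1 parental copy, lay between late and intermediate at the 8-cell stage and between late and early at the 4-cell stage. The means of the 10 imprinted landmarks ran from 2.5 to 73.4% in 8-cell embryos and from 7.41 to 89.8% in 4-cell embryos. Peg3, a zinc finger gene expressed from the paternal copy, ranged from 33.3 to 100% (median 68.8%) in 8-cell embryos and from 50 to 100% (median 100%) in 4-cell embryos. In the Prader-Willi and Angelman region, Ndn and Magel2, neuronal genes expressed from the paternal copy, share their bins here and were at 2.5 ± 7.91% in 8-cell embryos and 7.41 ± 12.8% in 4-cell embryos (SD, n = 10 and 9). Snrpn, a splicing protein gene of the same region, was at 37.95 ± 35.5% in 8-cell embryos and 37.9 ± 24.2% in 4-cell embryos. Ube3a, the ubiquitin ligase gene beside it, was at 12.7 ± 15.9% in 8-cell embryos and 29.2 ± 26.02% in 4-cell embryos. The region thus held late and intermediate bins side by side at both stages.

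Near the distal end, the growth factor gene Igf2 ranged from 8.33 to 66.7% (median 31.9%) at the 8-cell stage and from 0 to 100% (median 100%) at the 4-cell stage. The 4-cell embryos covered the whole range, so the groups overlapped fully. Its neighbour H19, a non-coding RNA gene expressed from the maternal copy, was at 49.2 ± 20.5% in 8-cell embryos and 72.2 ± 37.0% in 4-cell embryos. Ascl2, a transcription factor of the placenta, was at 38.3 ± 27.1% in 8-cell embryos and 58.3 ± 46.4% in 4-cell embryos. Kcnq1ot1, the non-coding RNA of the next imprinted domain, was at 66.2 ± 36.2% in 8-cell embryos and 66.1 ± 30.4% in 4-cell embryos. Cdkn1c, an inhibitor of cyclin-dependent kinases, was at 73.4 ± 29.4% in 8-cell embryos and 84.7 ± 18.9% in 4-cell embryos. The 1-Mb windows that hold these genes had fitted differences of -5.75 and -3.67 points (limma adjusted p = 0.731 and 0.855). The profiles do not separate the parental copies.

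Receptor families of the nose and the globin gene were late to intermediate. The Vmn2r cluster, vomeronasal receptors for pheromones, was at 2.05 ± 3.85% in 8-cell embryos and 10.96 ± 18.9% in 4-cell embryos. The Olfr genes proximal to beta-globin were at 11.4 ± 7.32% in 8-cell embryos and 35.5 ± 26.3% in 4-cell embryos, and the distal ones at 33.5 ± 11.7% in 8-cell embryos and 55.0 ± 27.8% in 4-cell embryos. Hbb-b1 ranged from 0 to 41.7% (median 4.17%) at the 8-cell stage and from 0 to 100% (median 50%) at the 4-cell stage. The Mrgpr cluster was at 5.76 ± 9.28% in 8-cell embryos and 28.9 ± 28.2% in 4-cell embryos. The windows that hold Hbb-b1 had fitted differences of -20.1 and -23.8 points (limma adjusted p = 0.333 and 0.327), and neither passed.

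Genes of cell division and development were found at both ends of the map. Of these 8 landmarks, 5 averaged 80% or more in 8-cell embryos and 3 in 4-cell embryos, while Nr2f2 stood at 0% in both. Among all bins compared, 34.6% were early in the 8-cell map, against 41.6% in the 4-cell map. Only Ccne1 and Igf1r passed 80% in 8-cell embryos alone. Their means differed by 5.56 and 7.55 points, less than the SD of either stage. The 5 against 3 is thus no sign of a shift, and it was not tested. Blm ranged from 58.3 to 100% (median 100%) in 8-cell embryos and from 95.8 to 100% (median 100%) in 4-cell embryos, and was replicated in at least 50% of its called bins in 5 of 6 8-cell cells under a Repliscore of 30 and in 0 of 1 such 4-cell cell. Ccne1, the cyclin E1 gene of S-phase entry, was at 83.3 ± 23.2% in 8-cell embryos and 77.8 ± 35.1% in 4-cell embryos. Cebpa, a transcription factor of fat, liver and blood cells, was at 91.7 ± 21.2% in 8-cell embryos and 94.9 ± 13.8% in 4-cell embryos. Fgfr2, a fibroblast growth factor receptor, was at 92.1 ± 16.6% in 8-cell embryos and 84.3 ± 34.5% in 4-cell embryos. Igf1r, the receptor of insulin-like growth factor 1, was at 80.9 ± 18.7% in 8-cell embryos and 73.3 ± 34.6% in 4-cell embryos. Mef2a was at 66.9 ± 34.2% in 8-cell embryos and 63.4 ± 47.1% in 4-cell embryos. Mki67, a marker of dividing cells, was at 35.9 ± 25.04% in 8-cell embryos and 59.7 ± 33.6% in 4-cell embryos.

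Genes of the oocyte and early embryo were intermediate. The Zscan4 cluster, expressed at the 2-cell stage of normal mouse embryos, was at 64.9 ± 31.3% in 8-cell embryos and 64.4 ± 35.4% in 4-cell embryos. Nlrp5, a maternal gene needed for early cleavage, was at 55.9 ± 25.5% in 8-cell embryos and 68.3 ± 32.4% in 4-cell embryos. Apoe, a lipid carrier, was early at 85.3 ± 22.3% in 8-cell embryos and 93.3 ± 14.1% in 4-cell embryos. Oca2, a pigmentation gene, was at 35.4 ± 20.9% in 8-cell embryos and 66.2 ± 22.9% in 4-cell embryos, and the window that holds it had a fitted difference of -11.2 points (limma adjusted p = 0.284). The long neuronal genes Dlg2, a synaptic scaffold, and Odz4, a teneurin, were at 7.92 ± 8.34% and 32.98 ± 15.7% in 8-cell embryos and at 24.9 ± 21.9% and 32.4 ± 20.3% in 4-cell embryos.

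**Figure D5:**
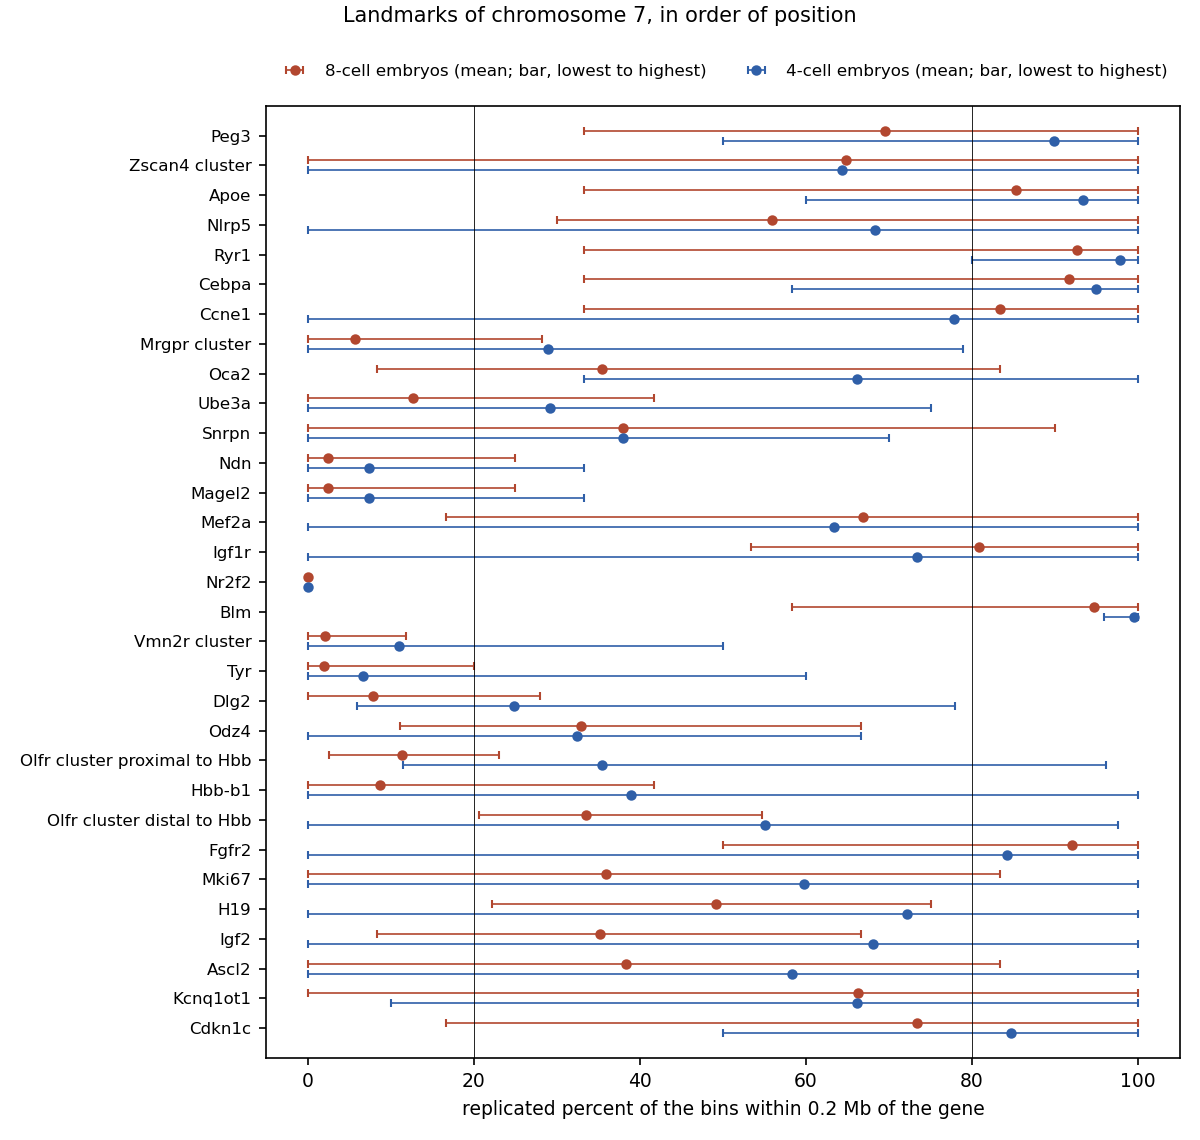
Replicated percent of the bins within 0.2 Mb (x axis) of the 31 landmarks of chromosome 7, in order of position, as the mean of 10 8-cell embryos (upper mark) and 9 4-cell embryos (lower mark), with bars from the lowest to the highest embryo. Thin lines mark 20% and 80%, and Nr2f2 is at 0% in every embryo of both stages while Blm is above 94% on average at both.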

How the data were processed

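Binary replication profiles of single blastomeres were used as deposited by the authors, with 1 state of no unit per 80-kb bin and cell (1 replicated, -1 not replicated, 0 no call). The authors' cell annotation gives the Repliscore as a percent, a noise score (the median absolute deviation, MAD), the embryo and the batch, per the file headers. Coordinates are on mm9, a build named in the submitters' processing notes. The sources used here do not name the aligner or the caller. Recomputed replicated shares matched the deposited percent in all 77 cells to within 1e-08 points. Read depth is unknown, so no counting interval is given, and 1345 to 1742 chromosome 7 bins were called per cell.

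Embryo means of mid-S cells were compared by two-sided permutation over all splits of the embryos (exact), with Benjamini-Hochberg adjustment over 20 chromosomes or 74 parts. The contributions of the 4 parts are given without p-values, since they divide the difference for which the chromosome was taken up. A 1-Mb window needed 6 or more called bins in 8 or more cells of each stage, and windows were fitted with limma 3.58.1 (R 4.3.3) over the whole genome. On simulated windows of this design it called 13 of 100 windows changed by 20 points, 71 of 100 changed by 40 points and 6 of 2337 unchanged ones. A bin was mapped where at least 5 embryos of each stage had a call. Named regions were the 5 longest shared domains of each kind, the 5 windows with the largest fitted difference in each direction, and a list of genes. The parts, the members and these lists were chosen with earlier results of these data known. Other work used matplotlib 3.10.9, scipy 1.17.1, pandas 2.3.3, numpy 2.4.6 and Python 3.11.15. Alternatives changed the batch, the cells or bins with long runs, the range of the Repliscore, the edges of the parts, the covariate, the coverage minimum, the class thresholds, the weighting and the embryos included. The tests measure the spread between embryos.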

Additional observations from a re-analysis of the deposited data

Results flagged for a closer look

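Values far from the other embryos of their stage, by the gap to the nearest other embryo over the whole range, numbered 13 in 52 groups of embryos. Chance flags about 1 in 20 groups, and percents near 0 or 100% have ranges set by few embryos.

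8-cell embryo 2, with 1 mid-S cell, lay at 10.3 points for the whole chromosome, against 1.26 points for the next. 8-cell embryo 1 was at 33.3% in the early domain from 27760001, against 88.0% for the next, and at 58.97% in the window from 37000001, against 23.1%. 8-cell embryo 6 was low in the early domains from 132640001 (81.0%) and 85840001 (80.3%) and high in the late domain from 100560001 (12.2%). 8-cell embryo 7 was at 63.9% in the early domain from 104000001.

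4-cell embryo 14, with 1 mid-S cell and the lowest mean Repliscore of its stage (38.2), was at 92.9% in the early domain from 132640001, at 78.9% in the early domain from 85840001, at 36.8% in the late domain from 93920001 and at 0% in the window from 136000001. 4-cell embryo 1 was at 14.9% in the late domain from 100560001. 4-cell embryo 9 was at 46.2% in the window from 27000001, against 76.9% for the next. The part of embryo, depth or position in S phase in these values was not tested.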

How the results depend on the processing

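Stage differences by part kept their direction and none passed the adjusted threshold under each alternative, apart from 3 reversals. Without cells that hold a run of 10 Mb or more on chromosome 7 (chosen after seeing the data) the first, the second and the third part differed by 2.10, 3.07 and 1.10 points. That setting removes 7 of 28 8-cell and 12 of 18 4-cell cells by a property of the chromosome measured, so nothing is read from it. The whole chromosome missed an unadjusted p under 0.05 without cells that hold a run of 20 Mb or more on it (-3.56 points, exact permutation p = 0.180) and with the bins of such runs left out (-3.90 points, p = 0.108). Across the alternatives tested the contributions ran from -4.12 to -1.83 for the distal part, -1.89 to -0.665 for 3 to 35 Mb, -2.47 to -0.122 for 35 to 70 Mb and -2.34 to -0.568 for the third part. Values within the title sets DEP_01_162 and DEP_01_164, chosen after seeing the data, kept their direction. Each set holds only 2 4-cell embryos with mid-S cells, so their direction is a description and no check.

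Leaving out 1 embryo at a time gave contributions of -3.07 to -1.95 for the distal part, -1.95 to -1.19 for 3 to 35 Mb and -1.74 to -1.10 for 35 to 70 Mb. It gave 0 to 2 passing windows: chr7:27000001-28000000 without 4-cell embryo 9 or 8-cell embryo 2, chr7:128000001-129000000 without 8-cell embryo 2, and chr7:36000001-37000000 without 8-cell embryo 1. In 3 alternatives 1 window passed, a different one each time. These were chr7:83000001-84000000 in the later batch, chr7:27000001-28000000 without the covariate and chr7:36000001-37000000 with at least 10 called bins per window. Mef2a's window differed by -1.88 points without cells that hold a run of 20 Mb or more on any autosome.

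With thresholds of 90 and 10%, 277 bins were early and 118 late at both stages, and 25.7% were early and 7.76% late at the 4-cell stage. In the later batch 181 bins were late at both stages and 10.8% late at the 4-cell stage. The cause was not tested. Read depth is unknown, and 9 and 10 embryos limit the precision. No paired analysis was possible because cells carry replicate numbers in accession order only and no embryo was sampled at both stages.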
